A study of Mus musculus with 14 samples.

Results

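CD numbers are given to leukocyte surface molecules that antibodies recognise, and the 73 mouse genes described here carry such a number in their symbol. They were taken by name and not by any measured value: every array probe whose transcript maps to a symbol made of Cd and a number, with or without a letter and a further number, leaving out Cd14, Cd74, Cd96, Cd177 and Cd200r3. These genes had 101 of the 41174 probes on the array, of which 23374 probes had one of 16535 symbols. CD molecules have no common structure. They include tetraspanins, which organise other proteins in the membrane, sialomucins and hyaluronan receptors of adhesion, regulators that stop complement on the cell's own surface, paired immunoglobulin receptors that raise or restrain myeloid activation, and the receptors of T and B lymphocytes. In blood formation they are used to tell progenitors from maturing cells of each lineage.

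The cells were FDCPmix, a line of mouse haematopoietic progenitors that the labels trace to bone marrow, kept in maintenance culture with horse serum and conditioned medium as the source of interleukin-3. No allele was altered and no agent was added in any group. Cells were stained with antibodies and sorted into Kit-Gr1- cells (3 arrays), Gr1+ cells (3), Kit+Gr1-Sca1hi cells (3) and Kit+Gr1-Sca1lo cells (3), with unfractionated cells on 2 arrays. Kit is the receptor for stem cell factor, Gr1 an antigen of granulocytes and Sca1 the product of Ly6a. The design text calls the replicates biological, and since all come from 1 cell line, the p-values measure the spread between its cultures or sorts. RNA was measured on single-colour arrays, so a level is the log2 signal of 1 probe relative to the 75th percentile of its array, and levels of different genes are not set against each other. A fraction is a mixture of cells, and fewer cells of a type cannot be told apart from less RNA per cell.

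Kit and Ly6a were read first as a check of the sort. Kit had levels of -2.07 to -1.65 in Kit-Gr1- cells, 0.38 to 0.92 in Gr1+ cells, -0.23 to 0.73 in Sca1hi cells and 0.15 to 0.53 in Sca1lo cells, so its lowest levels were in the fraction sorted as Kit negative. Ly6a had levels of -0.56 to 0.14 in Sca1hi cells, against -2.99 to -2.41 in Sca1lo cells. Its levels were 2.52 to 3.00 in Gr1+ cells, the highest of the sorted fractions, and -3.25 to -2.14 in Kit-Gr1- cells.

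Of the 14 arrays, 4 stood apart: Gr1+ replicate 3, Sca1hi replicate 3, Sca1lo replicate 3 and unfractionated replicate 1. The interquartile range of their log2 signals was 1.78 to 3.42, against 4.17 to 4.92 on the other 10, and among the CD genes it was 1.40 to 3.89 against 4.29 to 5.98. Signals on these 4 arrays were compressed, with 70 to 73 of the 73 genes well above background against 65 to 70 on the other 10. Comparisons are therefore given on all 14 arrays and without these 4. With 2 or 3 arrays in a group, the precision of each mean is limited. The fit uses 1 spread for all 5 groups, to which the unfractionated arrays contribute although they differed from each other (Pearson's r across genes of 0.51, against 0.981 to 0.989 among Kit-Gr1- arrays).

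Of the 73 genes, 65 were well above background on every Kit-Gr1- array, 69 on every Gr1+ array, and 64 on every array of each Kit+Gr1- fraction. Without the 4 compressed arrays, the scavenger receptor Cd163 and the C-type lectins Cd209d and Cd209e were well above background on no array of any fraction. The costimulatory receptor Cd28 was above background on all 3 Gr1+ arrays and on no array of the other fractions once the compressed arrays were left out. Cd163 and Cd209e were well above background on 4 arrays in all, which were the compressed ones. Cd209d failed the filter on dim probes, so 72 genes were tested among 32474. Of these 32474, 16460 had a symbol, and the others are transcripts without one, each counted under its array name. Shares of all genes below include both kinds, while every CD gene has a symbol. The words rose and fell are used where limma's Benjamini-Hochberg adjusted p over all genes was under 0.05 and the difference at least 2-fold, and ± marks its standard error unless SD is written.

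**Figure D1:**
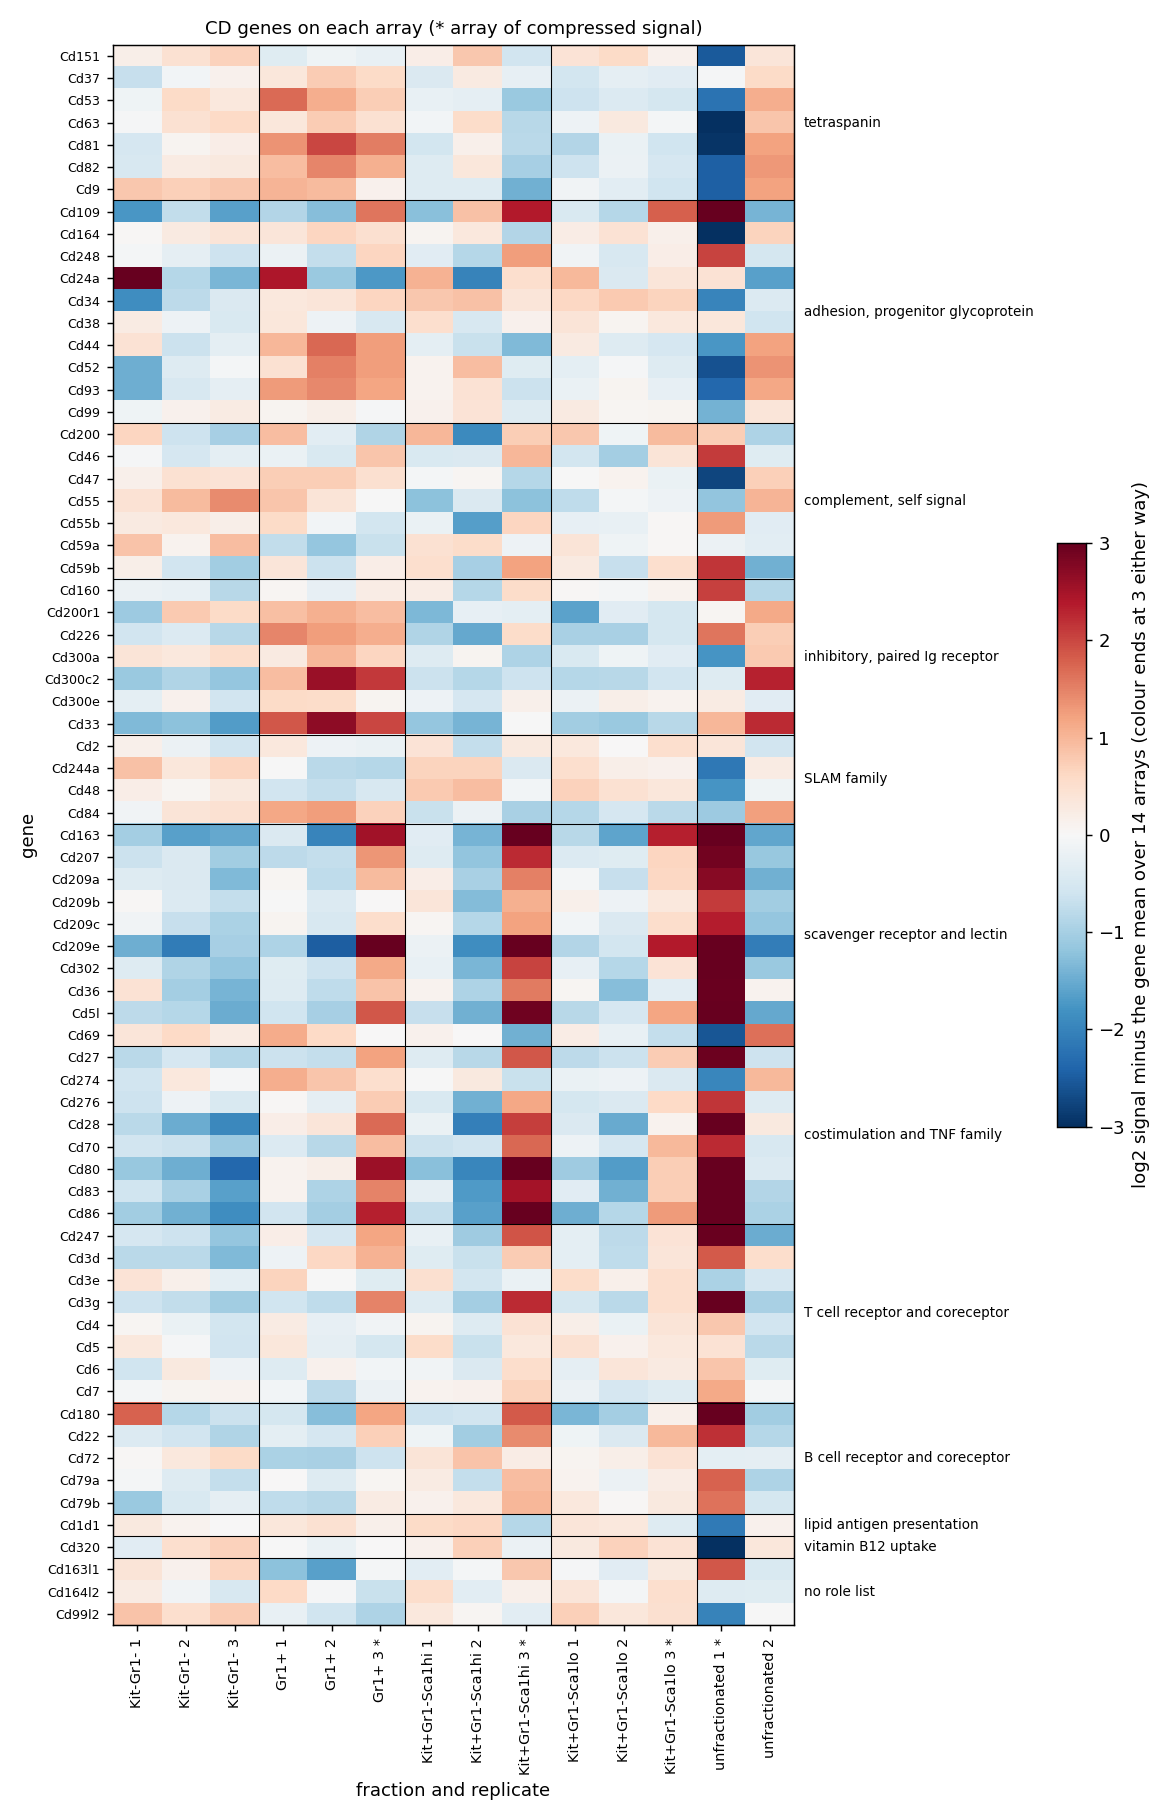
Log2 signal of 71 of the 72 tested CD genes on each of the 14 arrays, minus the gene's mean over all arrays, with genes grouped by role and asterisks on the 4 compressed arrays. On Gr1+ arrays Cd33, Cd300c2 and Cd81 are in red in all 3 replicates, while most T cell, B cell and lectin genes are red mainly on the compressed arrays.

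Of the 72 genes, 6 passed between Gr1+ and Kit+Gr1- cells, and the start regions of 5 of them are shown here as sequence context for genes that passed. The start region of Cd226, which also passed, is not reported here, so counts over the 5 windows leave it out. Each runs 5′ to 3′ on the gene's strand, in a window of 300 bases that lies mostly before the start that RefSeq gives on assembly GRCm38.p6. Cd33 lies at chr7:43533122-43533421 on the minus strand, Cd300c2 at chr11:115001831-115002130 on the minus strand and Cd84 at chr1:171839447-171839746 on the plus strand. Cd59a lies at chr2:104095551-104095850 on the plus strand and Cd72 at chr4:43454577-43454876 on the minus strand. Capitals mark GAGGAA, a core of the sites bound by PU.1, a myeloid and lymphoid transcription factor, on either strand, and in Cd300c2 also AGATAA, a core of GATA factor sites.
Cd33: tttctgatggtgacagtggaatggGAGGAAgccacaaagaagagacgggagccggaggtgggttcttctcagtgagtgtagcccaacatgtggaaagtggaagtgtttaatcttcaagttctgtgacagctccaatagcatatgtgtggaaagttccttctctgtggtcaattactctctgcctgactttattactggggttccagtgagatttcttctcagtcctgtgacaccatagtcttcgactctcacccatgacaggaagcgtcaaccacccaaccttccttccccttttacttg
Cd300c2: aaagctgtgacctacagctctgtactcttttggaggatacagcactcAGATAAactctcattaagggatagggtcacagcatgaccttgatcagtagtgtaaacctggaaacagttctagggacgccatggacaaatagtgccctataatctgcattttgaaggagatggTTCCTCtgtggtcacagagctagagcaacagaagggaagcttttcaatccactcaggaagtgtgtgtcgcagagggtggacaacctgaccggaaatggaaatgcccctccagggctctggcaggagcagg
Cd84: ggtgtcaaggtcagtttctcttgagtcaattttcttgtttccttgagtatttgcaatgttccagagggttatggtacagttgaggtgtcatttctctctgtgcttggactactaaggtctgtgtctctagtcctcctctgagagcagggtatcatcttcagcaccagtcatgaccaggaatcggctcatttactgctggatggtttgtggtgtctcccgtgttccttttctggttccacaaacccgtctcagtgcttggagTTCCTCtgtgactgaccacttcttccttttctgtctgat
Cd59a: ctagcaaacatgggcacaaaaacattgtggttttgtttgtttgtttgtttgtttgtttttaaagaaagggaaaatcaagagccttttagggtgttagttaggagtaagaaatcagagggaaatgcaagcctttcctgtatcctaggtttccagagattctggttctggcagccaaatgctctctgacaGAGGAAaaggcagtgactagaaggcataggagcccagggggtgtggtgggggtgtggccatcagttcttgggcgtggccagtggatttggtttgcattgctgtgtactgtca
Cd72: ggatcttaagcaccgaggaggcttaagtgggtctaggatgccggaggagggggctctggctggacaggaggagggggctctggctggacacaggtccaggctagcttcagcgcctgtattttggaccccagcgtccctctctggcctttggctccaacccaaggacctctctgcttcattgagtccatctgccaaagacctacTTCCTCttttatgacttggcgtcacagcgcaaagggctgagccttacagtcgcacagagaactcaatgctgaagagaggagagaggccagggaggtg
Read on both strands, GAGGAA stood once in each of the 5 windows, in 23 of the 53 CD genes' promoters that were matched, and in 28.3% of all 27025 promoters of the same length. AGATAA stood in the Cd300c2 window, apart from GAGGAA, in 11 of the 53 and in 11.4% of all promoters. TTGCNNAA, a core of C/EBP sites, stood in none of the 5, in 7 of the 53 and in 10.8% of all. A match describes letters in these windows and not bound sites.

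In Gr1+ cells the myeloid receptors Cd33 and Cd300c2, the nectin receptor Cd226 and the SLAM receptor Cd84 rose, while the B cell coreceptor Cd72 and the complement inhibitor Cd59a fell. Against the 6 Kit+Gr1- arrays, these were 4 of 72 CD genes higher and 2 lower. In this comparison 2.02% of all genes were called, 1.38% higher and 0.641% lower. The median difference of the CD genes was 0.02 and that of all genes -0.05, and 37 of the 72 differences were positive. Without the 4 compressed arrays 13 rose and 4 fell of 70, the 6 among them, beside 7% of all genes called (3.68% higher and 3.31% lower). Differences within a slide, given below on all 14 arrays, take the Kit+Gr1- side from both fractions on slide 1, from Sca1lo on slide 2 and from Sca1hi on slide 3, and the Gr1+ array of slide 3 is a compressed one.

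Cd33, a sialic acid binding lectin of myeloid cells, had levels of 0.09, 0.92 and 0.23 on the Gr1+ arrays. In Sca1hi cells its levels were -2.94, -3.17 and -1.77, and in Sca1lo cells -2.82, -2.88 and -2.59. All Gr1+ arrays lay above all Kit+Gr1- arrays, and the least negative Kit+Gr1- value was on the compressed Sca1hi array. Cd33 rose by 3.11 ± 0.36 on the log2 scale (8.62-fold, limma adjusted p = 0.00116) and by 3.45 ± 0.26 without the compressed arrays. The differences within slides 1, 2 and 3 were 2.96, 3.80 and 3.41, and the call held whichever of the 14 arrays was left out (adjusted p between 4.36e-05 and 0.021).

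Cd300c2, a paired immunoglobulin receptor of myeloid cells, had levels of -0.41, 1.26 and 0.78 on the Gr1+ arrays. They were -1.98, -2.18 and -1.95 in Sca1hi cells and -2.18, -2.16 and -1.90 in Sca1lo cells. The groups did not overlap, and the 6 Kit+Gr1- arrays, compressed ones included, lay close together. Cd300c2 rose by 2.60 ± 0.48 (6.06-fold, limma adjusted p = 0.012), with 1.67, 3.41 and 2.96 within slides, and its probes ranged from 1.51 to 2.60. The call ended without Gr1+ replicate 2 (2.24, adjusted p = 0.136) or without Gr1+ replicate 3 (2.48, adjusted p = 0.0641). It also ended with scaling to array medians (2.63, limma adjusted p = 0.173) or quantile normalization (2.68, adjusted p = 0.118). With the deposited log2 values unscaled Cd300c2 measured 2.41 and was not called (adjusted p = 0.0761).

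Cd226, a receptor for nectin-family ligands that is known from T cells, natural killer cells and platelets, had levels of -0.49, -0.69 and -0.86 on the Gr1+ arrays. They were -2.84, -3.48 and -1.40 in Sca1hi cells and -2.93, -2.93 and -2.48 in Sca1lo cells. The groups did not overlap, and the nearest Kit+Gr1- value was again that of the compressed Sca1hi array. Cd226 rose by 2.00 ± 0.39 (4.00-fold, limma adjusted p = 0.0169) and by 2.46 ± 0.24 without the compressed arrays, while its 4 probes ranged from 0.44 to 3.72. The call ended when Gr1+ replicate 1 (adjusted p = 0.0952), replicate 2 (adjusted p = 0.129) or replicate 3 (adjusted p = 0.0576) was left out.

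Among the other paired and inhibitory immunoglobulin receptors, Cd200r1, which restrains myeloid cells on binding Cd200, had levels of 0.42, 0.57 and 0.44 on the Gr1+ arrays. Its levels in Sca1hi cells were -1.85, -0.75 and -0.78, and in Sca1lo cells -2.09, -0.83 and -1.01. No Kit+Gr1- array reached the Gr1+ arrays, and within the Kit+Gr1- fractions the slide 1 arrays were the lowest. Cd200r1 differed by 1.70 ± 0.44 and missed the threshold (limma adjusted p = 0.0793), but rose without the compressed arrays (1.88, adjusted p = 0.0484) and with slide as a block (1.69, adjusted p = 0.0408), where 6 CD genes were called beside 2.41% of all genes. It also rose with the replicate number as a block (1.70, adjusted p = 0.00426). Cd300a, an inhibitory receptor of the same cluster as Cd300c2, measured 1.00 ± 0.43, and Cd300e, an activating relative, 0.47 ± 0.25, and neither passed. Over the 7 receptors of this kind 3 rose and 4 did not pass, with all 7 differences positive and a median of 1.70, against -0.05 for all genes.

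The SLAM family, whose members bind each other or themselves between blood cells, split. Cd84, which binds itself, had levels of 2.35, 2.45 and 1.89 in Gr1+ cells, against 0.54, 1.03 and 0.23 in Sca1hi cells and 0.35, 0.71 and 0.39 in Sca1lo cells, with no overlap. It rose by 1.69 ± 0.40 (3.23-fold, limma adjusted p = 0.0455), but with slide as a block it measured 1.53 and did not pass (adjusted p = 0.134). Its call ended when any of the 12 sorted arrays was left out (adjusted p up to 0.305), and without the compressed arrays it rose by 1.75 ± 0.21 (adjusted p = 0.00109). Cd48, the ligand of Cd244, had lower levels in Gr1+ cells, at 2.60, 2.46 and 2.70, against 3.97, 4.09 and 3.09 in Sca1hi cells and 3.88, 3.64 and 3.51 in Sca1lo cells. All 3 Gr1+ arrays lay below all 6 others, as for 3 CD genes in all (3.79% of all genes), and the difference of -1.11 ± 0.35 missed the threshold (adjusted p = 0.182) but fell by 1.36 without the compressed arrays (adjusted p = 0.000456). Of the 4 SLAM genes 1 rose and 3 did not pass, at a median of -0.49.

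Cd72, a lectin coreceptor that restrains B cells, had levels of -2.51, -2.54 and -2.19 in Gr1+ cells, against -1.17, -0.72 and -1.34 in Sca1hi cells and -1.47, -1.40 and -1.13 in Sca1lo cells. Its groups did not overlap and it fell by 1.21 on the log2 scale (SE 0.23, 2.31-fold, limma adjusted p = 0.0156), though not without Gr1+ replicate 1 (adjusted p = 0.0709) or replicate 2 (adjusted p = 0.149). With scaling to array medians Cd72 was not called (-1.18, limma adjusted p = 0.567), nor with quantile normalization (-1.14, adjusted p = 0.499). The deposited log2 values unscaled (-1.39, adjusted p = 0.96) and normexp background correction (-0.92, adjusted p = 0.0642) gave no call of Cd72 either. Cd59a, a lipid-anchored inhibitor of the complement attack complex, had levels of -0.68, -1.10 and -0.62 in Gr1+ cells, against 0.51, 0.59 and -0.10 in Sca1hi cells and 0.43, -0.08 and 0.09 in Sca1lo cells. Again no array overlapped, and Cd59a fell by 1.04 (SE 0.25, 2.06-fold, adjusted p = 0.0497). The Cd59a call ended in 10 of the 14 runs that left out 1 array (adjusted p up to 0.421, without Gr1+ replicate 2, where the difference was -0.89), and without the compressed arrays Cd59a fell by 1.25 (adjusted p = 0.0118). Its 2 probes measured -1.24 and -1.04. The other complement and self-signal genes did not pass on all 14 arrays. Cd55, the decay accelerating factor, measured 1.05 ± 0.42, and Cd47, the ligand of Sirpa that restrains phagocytes, 0.81 ± 0.61. Without the compressed arrays Cd55 rose, with a mean of 2.15 in Gr1+ cells against 0.92 in Kit+Gr1- cells.

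**Figure D2:**
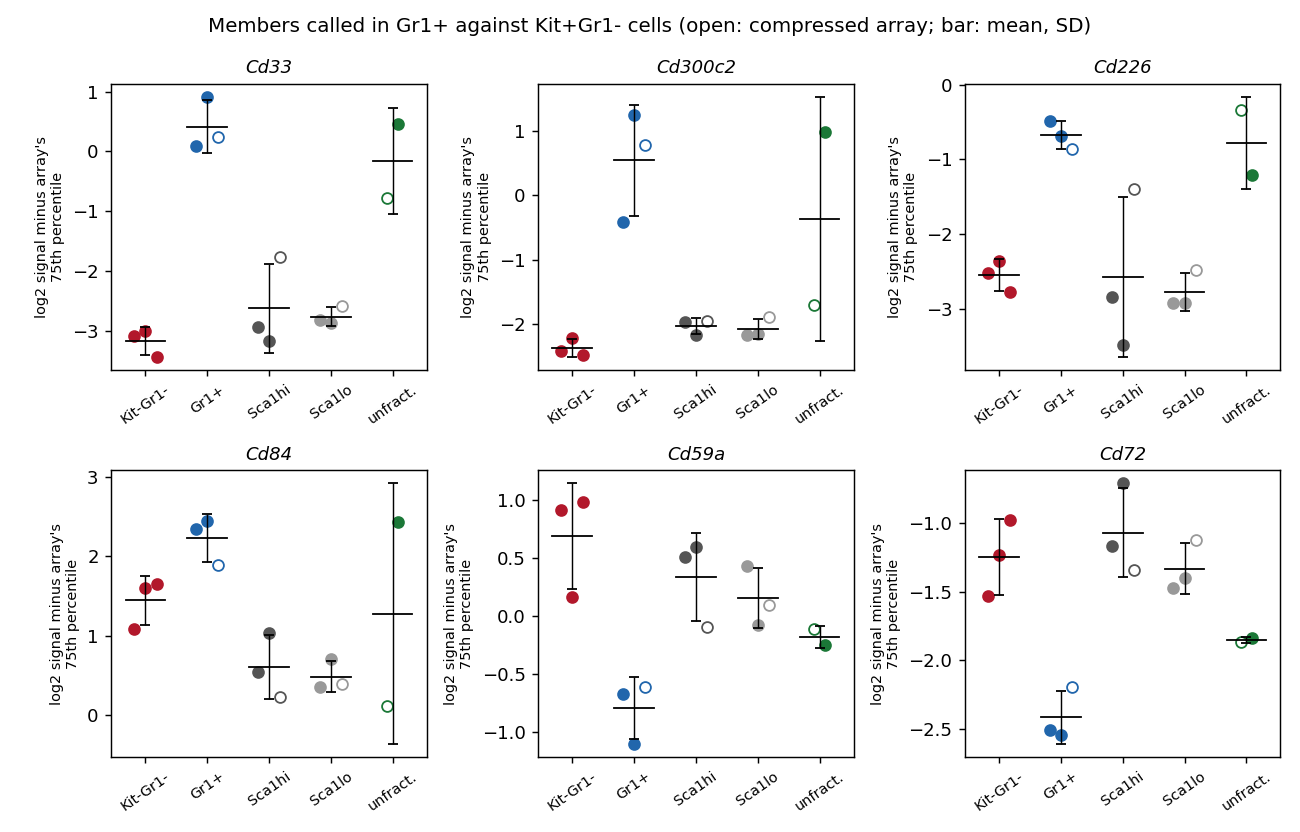
Level of the 6 CD genes called in Gr1+ against Kit+Gr1- cells on each array, as log2 signal minus the array's 75th percentile, with the mean and SD of each group and open circles for compressed arrays. The 3 Gr1+ arrays lie above all 6 Kit+Gr1- arrays for Cd33, Cd300c2, Cd226 and Cd84 and below them for Cd59a and Cd72.

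Tetraspanins did not pass one by one on all 14 arrays, although 6 of the 7 differences were positive with a median of 1.23, and 5 of 7 had Gr1+ arrays above all Kit+Gr1- arrays (5.68% of all genes did so). Cd81, a partner of integrins and of the B cell coreceptor, had levels of 3.02, 3.66 and 3.20 in Gr1+ cells, against 1.11, 1.81 and 0.85 in Sca1hi cells and 0.78, 1.45 and 1.07 in Sca1lo cells. It differed by 2.11 ± 0.63 (adjusted p = 0.152), and without the compressed arrays it rose by 2.05 ± 0.30 (limma adjusted p = 0.00235). Without these arrays Cd53, a leukocyte tetraspanin, rose by 1.79, Cd82 by 1.41 and Cd9 by 1.28, where all 14 arrays had given 1.71 ± 0.54, 1.55 ± 0.59 and 1.23 ± 0.61. Cd63, a lysosome and granule membrane tetraspanin, measured 0.56 ± 0.80, Cd37 measured 0.82 ± 0.24 and Cd151, a partner of laminin-binding integrins, -0.49 ± 0.48, and none of the 3 was called in either set of arrays.

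Of the 10 adhesion and progenitor glycoproteins none passed on all 14 arrays, at a median of -0.02, and 2 rose without the compressed arrays. Cd44, the hyaluronan receptor, had levels of 2.28, 3.00 and 2.54 in Gr1+ cells, against 0.97, 0.60 and -0.05 in Sca1hi cells and 1.55, 0.89 and 0.77 in Sca1lo cells. It differed by 1.82 ± 0.51 (adjusted p = 0.112) and rose by 1.64 without the compressed arrays (limma adjusted p = 0.00916), but its 3 probes ranged from -0.12 to 1.82. Cd93, a lectin-like glycoprotein of progenitors and myeloid cells, had levels of 4.92, 5.10 and 4.84 in Gr1+ cells, above the highest Kit+Gr1- level of 4.07. It measured 1.38 ± 0.59 on all 14 arrays and rose by 1.25 without the compressed arrays (adjusted p = 0.0186). Cd34, a sialomucin of progenitors, overlapped between the groups at -0.25 ± 0.36, Cd52, a lipid-anchored leukocyte antigen, measured 1.08 ± 0.73, and the mucin-like Cd24a -0.21 ± 1.30. The scavenger receptor Cd36 measured 0.04 ± 0.75.

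Ligands and receptors of T cell costimulation and lymphocyte receptors mostly gave no call. Of 8 costimulation genes none passed on all 14 arrays, at a median of 0.33, and Cd80, a ligand of Cd28, alone rose without the compressed arrays (1.63, limma adjusted p = 0.0221). Cd80 had levels of -2.77, -2.70 and -0.31 in Gr1+ cells, and its highest Kit+Gr1- level, 0.54, was on the compressed Sca1hi array, so the groups overlapped. Cd274, an inhibitory ligand of T cells known as PD-L1, measured 1.01 ± 0.48 (adjusted p = 0.634). None of 8 T cell genes (Cd3e at -0.05 ± 0.29) and none of 10 scavenger receptors and lectins (Cd69 at 0.91 ± 0.68) passed, and of 6 B cell genes only Cd72 did. Cd163l1, a scavenger receptor relative on no role list, measured -1.03 ± 0.49 and fell by 1.24 without the compressed arrays (adjusted p = 0.00809). Cd1d1, which presents lipids, measured 0.21 ± 0.44 and Cd320, the receptor for transcobalamin-bound vitamin B12, -0.41 ± 0.54.

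**Figure D3:**
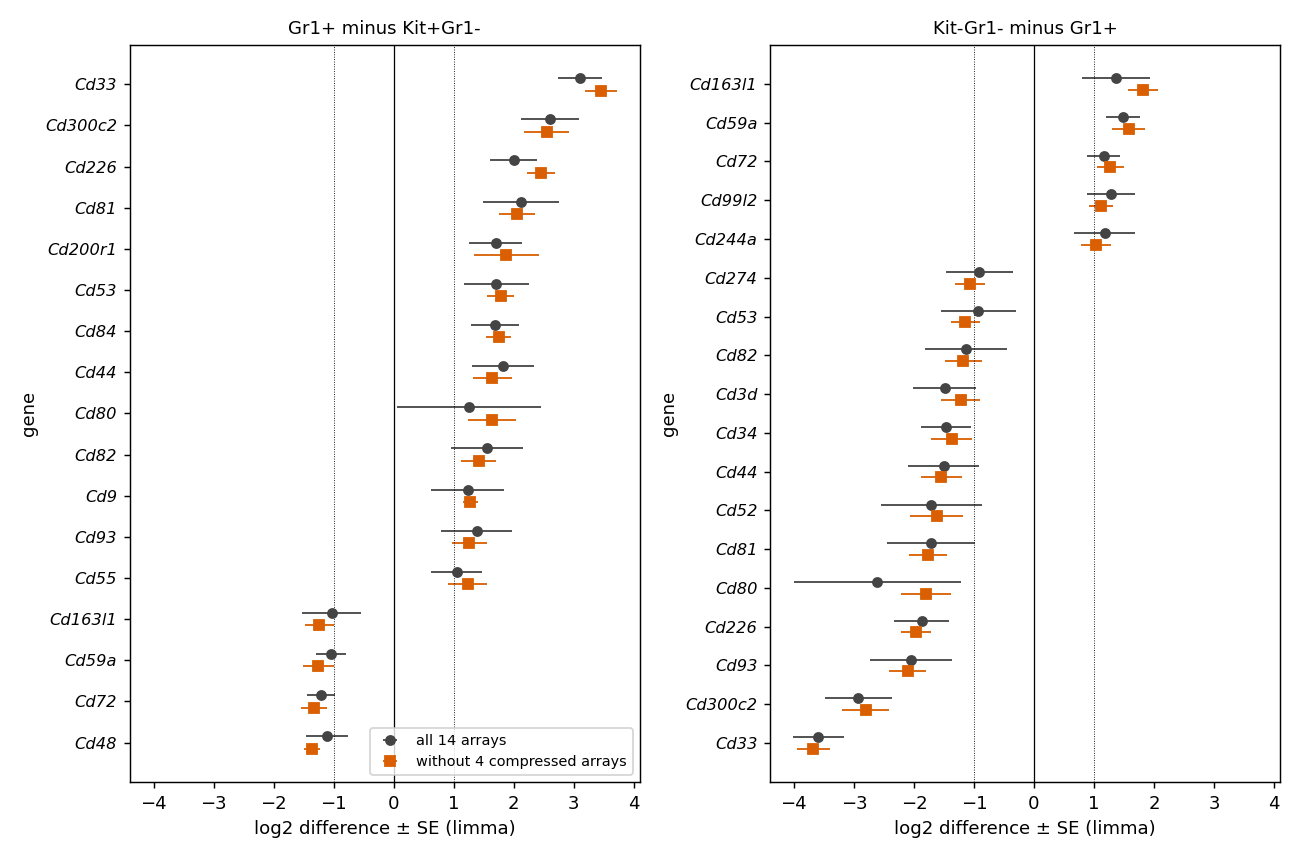
Log2 differences with limma standard errors for the CD genes called without the 4 compressed arrays, in Gr1+ minus Kit+Gr1- cells (17 genes) and in Kit-Gr1- minus Gr1+ cells (18 genes), on all 14 arrays (circles) and without the 4 (squares). Dotted lines mark 2-fold, and the bars of most genes shorten when the 4 arrays are left out, as for Cd9 and Cd80, while no difference changes sign.

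Markers of several myeloid cell types were high in the same Gr1+ arrays. Summed on the linear scale relative to the array's 75th percentile, 6 neutrophil markers reached 589 to 810 in Gr1+ cells, against 24.5 to 89.3 in Sca1hi and 46.9 to 166 in Sca1lo cells. The 3 eosinophil markers summed to 101 to 262 in Gr1+ cells, against 0.305 to 2.83 in Sca1hi and 0.333 to 2.98 in Sca1lo cells, and 4 monocyte and macrophage markers to 23.8 to 34.2, against 1.22 to 2.31 and 1.09 to 2.09. The part of these cells in the differences of CD genes was not tested. The 5 mast cell and basophil markers summed to 190 to 409 in Gr1+ cells, against 60.7 to 177 in Sca1hi and 68.3 to 124 in Sca1lo cells. In Kit-Gr1- cells these 5 summed to 119 to 278, which overlapped the Gr1+ range. The 4 B cell markers summed to 0.74 to 0.895 in Gr1+ cells, against 0.54 to 1.35 in Sca1hi and 0.731 to 0.926 in Sca1lo cells.

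In Kit-Gr1- cells no CD gene passed against the Kit+Gr1- fractions on all 14 arrays, where 0.0677% of all genes were called (0.0554% higher and 0.0123% lower), and 5 CD genes had an unadjusted p under 0.05 (2.05% of all genes). Without the compressed arrays the progenitor sialomucin Cd34 fell and the tetraspanin Cd9 rose, 2 of 70 CD genes beside 0.496% of all genes (0.352% higher and 0.144% lower). The median difference of the CD genes was -0.27 on all 14 arrays and that of all genes -0.25. With scaling to array medians they became 0.06 and 0.07. The Kit+Gr1- arrays here are those used against the Gr1+ cells, so both comparisons share them. Kit-Gr1- arrays lay above all 6 Kit+Gr1- arrays for 7 CD genes (3.20% of all genes) and below them for 4 (2.45%).

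Cd34 had levels of 0.67, 1.76 and 2.10 in Kit-Gr1- cells, against 3.35, 3.43 and 2.90 in Sca1hi cells and 3.17, 3.32 and 3.20 in Sca1lo cells. The 6 Kit+Gr1- arrays, compressed ones included, lay within a narrow range above all Kit-Gr1- arrays, among which replicate 1 was the lowest. The difference was -1.72 ± 0.36 on all 14 arrays (unadjusted p = 0.000388, limma adjusted p = 0.247), with -2.59, -1.56 and -1.33 within slides 1, 2 and 3. Without the compressed arrays Cd34 fell by 1.81 (SE 0.28, adjusted p = 0.0315).

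Cd9, which on blood cells is known from platelets and their precursors, had levels of 4.84, 4.75 and 4.85 in Kit-Gr1- cells, against 3.65, 3.65 and 2.60 in Sca1hi cells and 3.94, 3.72 and 3.44 in Sca1lo cells. The 3 Kit-Gr1- arrays were nearly equal, and the compressed arrays were the lowest of both Kit+Gr1- fractions. On all 14 arrays the difference was 1.31 ± 0.61 (limma adjusted p = 0.906), and without the compressed arrays Cd9 rose by 1.07 ± 0.11 (adjusted p = 0.00383), with 1.05, 1.03 and 1.20 within slides. Cd55 had levels of 1.98, 2.48 and 2.96 in Kit-Gr1- cells, against 0.30, 1.10 and 0.30 in Sca1hi cells and 0.78, 1.49 and 1.38 in Sca1lo cells, also with no overlap. Cd55 measured 1.58 ± 0.42 (adjusted p = 0.634) and missed the threshold without the compressed arrays too (1.56, adjusted p = 0.0546).

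**Figure D4:**
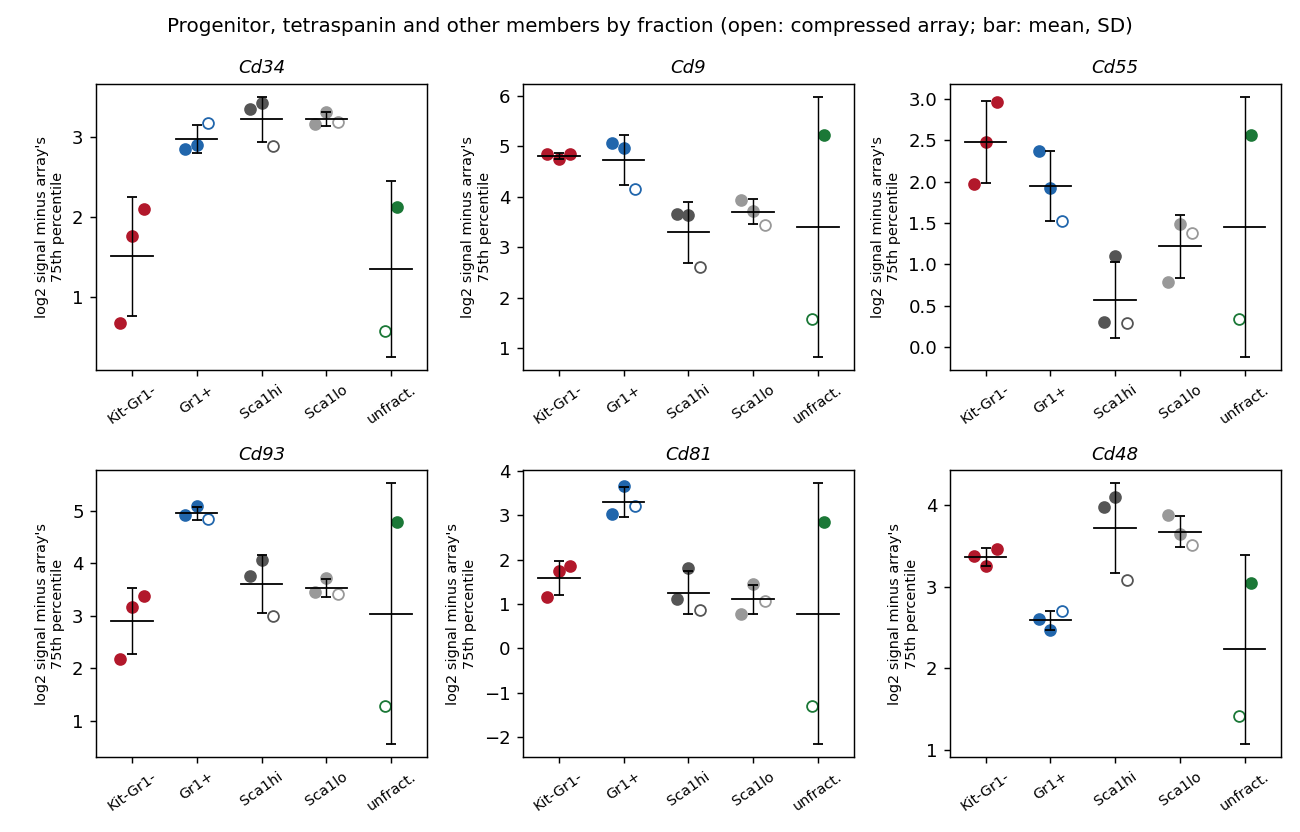
Level of Cd34, Cd9, Cd55, Cd93, Cd81 and Cd48 on each array, as log2 signal minus the array's 75th percentile, with the mean and SD of each group and open circles for compressed arrays. Cd34 is lowest in Kit-Gr1- cells (0.67 to 2.10) among the sorted fractions, Cd9 and Cd55 are higher in Kit-Gr1- than in Kit+Gr1- cells, and Cd48 is lower in Gr1+ cells (2.46 to 2.70) than in the other sorted fractions.

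Among the further CD genes without overlap were Cd79b, a signalling chain of the B cell receptor, at -0.96 ± 0.43, and Cd84, at 0.90 ± 0.40, neither of which passed. On all 14 arrays all 7 tetraspanin differences were positive with a median of 0.40, and none passed: Cd53 measured 0.79 ± 0.54, Cd81 0.40 ± 0.63 and Cd63 0.39 ± 0.80. Without the compressed arrays, none of which is a Kit-Gr1- array, the tetraspanin median was 0.23 and only Cd9 was called. On the uncompressed arrays Cd151 had levels of 2.11 to 2.64 in Kit-Gr1- cells, against 2.14 to 2.76 in Kit+Gr1- cells. Among adhesion molecules Cd93 measured -0.67 ± 0.59, Cd44 0.31 ± 0.51 and Cd24a 0.33 ± 1.30. Cd47 measured 0.49 ± 0.61, Cd48 -0.33 ± 0.35, Cd33 -0.48 ± 0.36 and Cd36 -0.53 ± 0.75. Erythroid markers summed to 21.5 to 37.9 in Kit-Gr1- cells, against 2.33 to 4.62 in Sca1hi and 3.97 to 4.77 in Sca1lo cells, and megakaryocyte markers to 54.9 to 103, against 15.4 to 35.7 and 25.4 to 40.2. Whether such cells carry the differences in Cd34, Cd9 and Cd55 was not tested.

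Set directly against Gr1+ cells, Kit-Gr1- cells had less RNA of the myeloid receptors Cd33 and Cd300c2 and more of the complement inhibitor Cd59a. These were 1 of 72 CD genes higher and 2 lower, beside 1.61% of all genes called (0.579% higher and 1.03% lower). The median of the CD genes was -0.45, and that of all genes -0.21. With scaling to array medians they became -0.15 and 0.08. Without the compressed arrays 5 rose (Cd59a, Cd72, Cd163l1, Cd99l2 and Cd244a) and 13 fell of 70, beside 6.32% of all genes (2.95% higher and 3.38% lower). Both Gr1+ and Kit-Gr1- arrays also enter the comparisons above, so these values do not stand apart from them.

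Cd33 had levels of -3.09, -3.00 and -3.44 in Kit-Gr1- cells and fell by 3.59 (SE 0.42, 12-fold, limma adjusted p = 0.000942) against the Gr1+ levels given above, whichever array was left out (adjusted p up to 0.0113). Cd300c2 had levels of -2.43, -2.23 and -2.49 and fell by 2.92 (SE 0.56, 7.59-fold, adjusted p = 0.0165), and the call ended when any Kit-Gr1- array, Gr1+ replicate 2 or Gr1+ replicate 3 was left out (adjusted p up to 0.129). Cd59a had levels of 0.91, 0.16 and 0.98 and rose by 1.48 ± 0.29 (2.79-fold, adjusted p = 0.0182), but not without Kit-Gr1- replicate 1, Kit-Gr1- replicate 3 or Gr1+ replicate 2 (adjusted p up to 0.146). None of these 3 genes overlapped between the fractions. With scaling to array medians only Cd33 among these 3 was called, and Cd300c2 was not called with quantile normalization either. Cd72 and Cd226 just missed the threshold at 1.16 ± 0.27 (adjusted p = 0.0517) and -1.87 ± 0.46 (adjusted p = 0.0646). Both passed with slide as a block (adjusted p = 0.0234 and 0.00915), where 5 CD genes were called beside 2.14% of all genes.

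Kit-Gr1- arrays lay below all Gr1+ arrays for 19 CD genes (13.3% of all genes did so) and above them for 8 (13.5%). Cd93 had levels of 2.18, 3.16 and 3.37 in Kit-Gr1- cells, against 4.92, 5.10 and 4.84 in Gr1+ cells, and fell by 2.10 without the compressed arrays (limma adjusted p = 0.00293). Cd81 had levels of 1.15, 1.73 and 1.86 in Kit-Gr1- cells, below the lowest Gr1+ level of 3.02, and fell by 1.76 without the compressed arrays (adjusted p = 0.0072). On all 14 arrays Cd93 measured -2.05 ± 0.68 (adjusted p = 0.261) and Cd81 -1.71 ± 0.73 (adjusted p = 0.579).

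For the costimulation genes Cd80 and Cd28 the compressed array was the highest of the Gr1+ arrays. Cd80 had levels of -4.01, -4.35 and -5.25 in Kit-Gr1- cells, against -2.77, -2.70 and -0.31 in Gr1+ cells. Its difference was -2.61 ± 1.39 on all 14 arrays and it fell by 1.80 without the compressed ones (limma adjusted p = 0.0221). Cd28, well above background on no Kit-Gr1- array, was lower than in Gr1+ cells by an estimated bound of 2.68-fold, which was not tested. The measured difference of Cd28 was not called (limma adjusted p = 0.878). The bound was taken against the dimmest signal well above background on each Kit-Gr1- array, or the measured signal where higher. It rests in part on the compressed Gr1+ array, where Cd28 was at -3.51, against -5.02 and -4.85 on the other Gr1+ arrays. Measured means of Cd28 were -6.62 ± 0.57 (SD, n = 3) in Kit-Gr1- cells and -4.46 ± 0.83 (SD, n = 3) in Gr1+ cells.

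Cd34 had levels of 2.85, 2.91 and 3.18 in Gr1+ cells, above all 3 Kit-Gr1- arrays. It measured -1.47 ± 0.42 between Kit-Gr1- and Gr1+ cells (limma adjusted p = 0.143) and fell by 1.37 without the compressed arrays (adjusted p = 0.0289). Without these arrays the adhesion molecules Cd52 and Cd44 fell by 1.62 and 1.54, the T cell receptor chain Cd3d by 1.22, the tetraspanins Cd82 and Cd53 by 1.18 and 1.14 and Cd274 by 1.06, each with an adjusted p under the threshold. Cd226 fell by 1.96 in that fit. Cd163l1 rose by 1.82, Cd72 by 1.27, Cd99l2, a relative of the adhesion molecule Cd99, by 1.11, and Cd244a, a SLAM receptor, by 1.03. Among the remaining named genes, on all 14 arrays, Cd48 measured 0.78 ± 0.40, Cd24a 0.54 ± 1.50, Cd47 -0.31 ± 0.71, Cd63 -0.17 ± 0.92, Cd9 0.08 ± 0.70 and Cd36 -0.57 ± 0.87, and none passed.

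Between Sca1hi and Sca1lo cells 0 of 72 CD genes passed with limma, beside 0 of all genes (0%), and 0 CD genes had an unadjusted p under 0.05 (0.182% of all genes). With array weights limma called 15 genes, no CD gene among them. The differences of the CD genes ran from -0.65 to 0.96, with standard errors of 0.27 to 1.93, and without the compressed arrays they ran from -0.79 to 0.68. Larger differences of other genes were not called either. Among these were the blood group gene Kel, at -1.66 ± 0.37, and Ly6a, whose levels are given above and did not overlap. The lack of calls therefore does not exclude differences of such size. Cd7, an immunoglobulin receptor of T cells, had levels of -1.41, -1.39 and -0.86 in Sca1hi cells, against -1.69, -2.04 and -1.91 in Sca1lo cells, and measured 0.66 ± 0.33. Cd99l2 had levels of 0.73, 0.46 and 0.08 in Sca1hi cells, against 1.11, 0.75 and 0.89 in Sca1lo cells, and measured -0.49 ± 0.40. These were the CD genes without overlap, 1 above (1.32% of all genes) and 1 below (1.66%).

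Among genes used to mark progenitors, Cd34 measured -0.01 ± 0.42 between Sca1hi and Sca1lo cells, Cd48 0.04 ± 0.40, Cd93 0.08 ± 0.68 and Cd24a -0.45 ± 1.50. The tetraspanins Cd9, Cd53, Cd63 and Cd81 measured -0.40 ± 0.70, -0.00 ± 0.63, -0.14 ± 0.92 and 0.16 ± 0.73. Cd33 measured 0.14 ± 0.42, Cd44 -0.56 ± 0.59, Cd47 -0.25 ± 0.71 and Cd36 0.77 ± 0.87. Cd36 differed by 0.06 within slide 1 and by 1.89 within slide 4, which held the compressed array of each fraction. Cd80 likewise differed by -0.21 and 2.69.

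On the 2 unfractionated arrays Cd33 had levels of -0.78 and 0.47, Cd300c2 -1.71 and 0.98, and Cd81 -1.29 and 2.86, the first on the compressed array. Unfractionated replicate 2 was nearer to the Gr1+ mean than to the Kit+Gr1- mean of the uncompressed arrays for 14 of the 17 genes called between these fractions without the compressed arrays. It was nearer to the Kit+Gr1- mean for Cd59a, Cd72 and Cd163l1. Cd34, at 2.13, and Cd9, at 5.23, were nearer to Kit-Gr1- than to Kit+Gr1- cells on that array. Cd9 is also 1 of the 14 genes nearer to Gr1+ cells, with means of 5.02 in Gr1+ and 4.81 in Kit-Gr1- cells.

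Surface molecules that have a CD number but another gene name were listed too. Of 53 such genes, 11 rose and 3 fell in Gr1+ against Kit+Gr1- cells (2.02% of all genes called), and 17 rose and 7 fell without the compressed arrays (7% of all genes). On all 14 arrays the largest differences were those of Sirpa, the Cd47 receptor of myeloid cells (6.87 ± 0.84), the ectoenzyme Bst1 (6.35 ± 1.20), the adhesion molecule Ceacam1 (4.70 ± 0.84) and the Fc receptor Fcgr3 (4.47 ± 0.87). Kit measured 0.28 ± 0.25 there and was not called. In Kit-Gr1- against Kit+Gr1- cells 3 rose, the blood group genes Kel (3.48 ± 0.32) and Art4 (3.14 ± 0.41) and the platelet receptor Gp1ba (1.96 ± 0.25), and Kit fell by 2.20 (0.0677% of all genes called). Without the compressed arrays 4 rose and 1 fell there, beside 0.496% of all genes. In Kit-Gr1- against Gr1+ cells 5 rose and 7 fell (1.61% of all genes called), and 7 rose and 19 fell without the compressed arrays (6.32%). On all 14 arrays they were led by Bst1 (-7.24), Sirpa (-7.03), Kel (5.41) and the granulocyte growth factor receptor Csf3r (-5.07), and Kit fell by 2.49. None was called between Sca1hi and Sca1lo cells, where Kit measured 0.01 ± 0.29.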

How the data were processed

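RNA of 14 FDCPmix samples was hybridised to single-colour Agilent arrays, 1 array a sample. The deposited scanner intensity values (processed, background-subtracted Cy3 signals) were made by the authors with Agilent Feature Extraction 10.1.1.1, protocol GE1-v5_10_Apr08, per the file headers. The deposited series table holds log2 values, which equal log2 of those processed signals to within 5e-09. Flags of 0 and 1 in the deposited files mark outlier spots and spots well above background.

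From these files, control spots and spots with outlier flags (69 to 493 per array) were left out, spots of a probe were averaged, and log2 signal minus the array's 75th percentile was taken. A probe was kept if well above background on at least 3 of 14 arrays, and the kept probe of highest mean stood for its gene. Differences were tested with limma 3.58.1 in R 4.3.3 (lmFit, eBayes with trend) on all 5 groups, with Benjamini-Hochberg adjustment over 32474 genes, and the script was tested on simulated data. Alternatives were 28 other settings, among them scaling, background correction, filter, array weights, slide or replicate number as a block, and leaving out each array. The slides and the 4 compressed arrays were known from the file headers and from earlier results.

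The genes, role lists and markers were chosen with earlier results of these data known. Named in each comparison were all genes called, up to 15 by size, up to 5 more without overlap, the brightest gene of each role, and a set of 12 genes given throughout. The values of 1 gene under this rule are not reported here. Genes called without the compressed arrays were named after their values were seen. Same-numbered arrays of different groups were checked for deviations that correlate. Among Gr1+, Sca1hi and Sca1lo arrays every pair was at 0.62 to 0.87, and pairs with Kit-Gr1- arrays were at -0.23 to 0.21. Replicate 3 of Gr1+, Sca1hi and Sca1lo is a compressed array, and no Kit-Gr1- array is. Compression shared by number also enters such deviations, so the check cannot tell whether the numbers pair samples. The labels do not state a pairing. Symbols came from RefSeq through transcript accessions, and promoters from its assembly GRCm38.p6. The array headers name mm8, and no array coordinates are given.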

Additional observations from a re-analysis of the deposited data

How the results depend on the processing

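No CD gene called on all 14 arrays reversed under any setting. Cd200, called lower in Kit-Gr1- against Kit+Gr1- with array weights alone, ranged from -1.17 to 0.03 over the 28 settings. Counts of CD genes called (higher and lower) on all 14 arrays were 0 for Kit-Gr1- against Kit+Gr1-, 6 for Gr1+ against Kit+Gr1-, 3 for Kit-Gr1- against Gr1+ and 0 for Sca1hi against Sca1lo, and the last stayed at 0 in every setting run. In that order the first 3 counts were 2, 17 and 18 without the 4 compressed arrays, 2, 17 and 12 with sorted fractions only, and 6, 20 and 17 with array weights. They were 3, 17 and 19 without the 4 arrays and with slide as a block, a setting chosen after seeing the data. Gr1+ against Kit+Gr1- gave 2 with array medians (Cd33 and Cd226) and 3 with normexp background correction (Cd33, Cd226 and Cd300c2). The genes called there also changed with the scaling. Quantile normalization called 7, of which 3 (Cd33, Cd226 and Cd84) were among the 6 called in the main setting. The deposited log2 values unscaled called 8, of which only Cd84 was among those 6. Kit-Gr1- against Kit+Gr1- gave 1 with quantile normalization and 1 with the deposited log2 values unscaled. Kit-Gr1- against Gr1+ gave 6 with quantile normalization and 5 with slide as a block. With the deposited log2 values unscaled Cd33 missed the threshold in Gr1+ against Kit+Gr1- (2.92, limma adjusted p = 0.0708) and in Kit-Gr1- against Gr1+ (-3.64, adjusted p = 0.058), where none of the 3 genes called on all 14 arrays was called. Leaving out 1 array gave 0 to 2, 1 to 17, 1 to 12 and 0 to 0 calls in the 4 comparisons. The highest counts came without either unfractionated array, and the lowest for Gr1+ against Kit+Gr1- without Gr1+ replicate 2. The replicate block gave 0, 7, 4 and 0 calls. It added Cd200r1 in Gr1+ against Kit+Gr1- and Cd72 in Kit-Gr1- against Gr1+, and it changed no other call of a CD gene. Whether the numbers pair the samples is not known. The cause of these shifts was not tested, beyond the fewer arrays that some settings used.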

Other observations

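Cd24a, a mucin-like antigen of early blood cells, had levels of -2.34, -6.60 and -7.13 in Kit-Gr1- cells and -3.34, -6.87 and -7.47 in Gr1+ cells. The levels were -4.72, -7.76 and -5.25 in Sca1hi cells and -4.77, -6.20 and -5.40 in Sca1lo cells. In each of the 4 fractions the array on slide 1 was the highest, and Cd24a was well above background on 6 of the 14 arrays. The values are given with no test.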
